A study of Mus musculus with 35 samples.

Results

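The mitosis genes are 48 mouse genes whose products carry a cell through nuclear and cell division, and their transcript levels were followed in primary mouse embryonic fibroblasts (MEFs) after exposure to methyl methanesulfonate (MMS), a chemical that transfers methyl groups onto DNA bases and proteins. They were chosen by gene symbol, and each was read from the probe set, a group of short probes for 1 transcript, with the highest mean over all arrays. Of the 48, 47 had such a probe set and all 47 were tested, among 14135 genes tested of 18194 with a probe set. Ccnb1, which encodes cyclin B1, was not analysed here.

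Entry into mitosis is driven by cyclin-dependent kinase 1 with its A- and B-type cyclins, which CDC25 phosphatases switch on. The Polo-like and Aurora kinases then build the spindle and attach chromosomes to it, the spindle checkpoint holds the cell until every kinetochore is attached, and the anaphase-promoting complex ends mitosis by marking cyclins and securin for destruction. Transcripts of these genes are made mainly in G2 phase and are low in resting cells, and the p53 pathway represses many of them after DNA damage through promoter-bound MuvB complexes.

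The arrays came from 9 groups of cultures of C57BL6/J primary MEFs, which per the labels were taken from day 15.5 embryos, expanded for 2 passages in 5% oxygen and used while growing at 60 to 70% confluence. Control cells were sampled at 0, 1, 8, 24 and 72 h. Cells given 40 µg/mL MMS in fresh medium were sampled at 1, 8, 24 and 72 h. Per the paper's methods, control cells were also given fresh medium, without MMS. There were 4 arrays in each group and 3 in MMS 72 h, 35 in all. No label says that the replicates were separate cultures, so p-values measure the spread between these arrays, which may be technical. In such RNA from whole cultures, fewer dividing cells and less RNA per dividing cell cannot be told apart. All levels are log2 signals, so a difference of 1 is a 2-fold change, and levels of different genes are not compared because probe sets differ in brightness.

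Some arrays stood apart. Fibroblast markers, 18 of 18 tested, had mean levels of 10.39 to 12.03 over all arrays and were lower after MMS. Their mean was 11.41 to 11.45 on the control and 10.60 to 10.66 on the MMS arrays at 8 h, 11.43 to 11.54 and 10.39 to 10.65 at 24 h, and 11.95 to 12.03 and 11.52 to 11.69 at 72 h. Of the 18, 15 were lower and 0 higher at 8 h (median difference -0.62). At 24 h 17 were lower and 1 higher (-0.92), and at 72 h 7 lower and 0 higher (-0.19). Over all genes, 25.0% were lower and 28.7% higher at 8 h, 19.4% and 25.0% at 24 h, and 10.4% and 10.1% at 72 h. Macrophage markers, 16 of 18 tested, averaged 8.54 to 8.70 on the control 8 h arrays and 8.00 to 8.18 on the MMS 8 h arrays, against 4.46 to 6.13 elsewhere, and skeletal muscle markers, 7 of 14 tested, were at 7.13 to 7.37 at 8 h against 5.21 to 6.09 at other times. Transcripts of intestinal epithelium, 26 of 29 tested, were high on replicate 3 of control 0 h (mean 11.26), MMS 1 h (7.49), MMS 24 h (9.35) and MMS 72 h (6.22). Actin probes at the 3' end exceeded those at the 5' end by 0.37 to 0.49 on the MMS 8 h arrays. On the control 8 h arrays the actin excess was 0.20 to 0.24. At other times it was 0.13 to 0.45, with the highest value on control 72 h replicate 1. For GAPDH probes the excess was 0.01 to 0.14 at 8 h against -0.24 to 0.01 at other times. The part of these differences in the results on mitosis genes was not tested.

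Promoter sequences are shown first because many of these genes share short elements there. The cell cycle genes homology region (CHR) is a DNA element bound by MuvB complexes, and the CCAAT box is bound by NF-Y. Windows from 250 bases before to 50 after the start, 300 in all, were taken from RefSeq (GRCm38.p6) and searched on both strands for the CHR as TTTGAA or TTCAAA, for the CCAAT box as CCAAT or ATTGG, and for an E2F core as GCGGGAA or TTCCCGC. The 7 windows below run 5' to 3' on the gene's strand with CHR and CCAAT matches in capitals, and were picked to span what the windows hold and what the genes did at 8 h. Cdk1 (chr10:69352863-69353162, minus strand), Ccnb2 (chr9:70421505-70421804, minus), Plk1 (chr7:122159185-122159484, plus) and Kif11 (chr19:37376132-37376431, plus) hold both elements and fell, Anln (chr9:22389157-22389456, minus) holds only the CHR and fell, Nuf2 (chr1:169531415-169531714, minus) holds neither and fell, and Bub3 (chr7:131560120-131560419, plus) holds both and was higher at 8 h.
Cdk1: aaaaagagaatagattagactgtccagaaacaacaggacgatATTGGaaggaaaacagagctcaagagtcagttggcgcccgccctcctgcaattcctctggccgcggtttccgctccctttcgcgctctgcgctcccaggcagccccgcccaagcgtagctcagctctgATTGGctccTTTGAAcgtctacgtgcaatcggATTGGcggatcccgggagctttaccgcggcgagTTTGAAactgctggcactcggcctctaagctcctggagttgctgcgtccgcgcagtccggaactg
Ccnb2: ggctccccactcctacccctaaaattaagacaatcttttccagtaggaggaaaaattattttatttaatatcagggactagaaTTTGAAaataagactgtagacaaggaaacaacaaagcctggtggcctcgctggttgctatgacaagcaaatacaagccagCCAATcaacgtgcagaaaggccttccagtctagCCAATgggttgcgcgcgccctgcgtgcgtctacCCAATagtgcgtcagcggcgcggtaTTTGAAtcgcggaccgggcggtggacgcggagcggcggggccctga
Plk1: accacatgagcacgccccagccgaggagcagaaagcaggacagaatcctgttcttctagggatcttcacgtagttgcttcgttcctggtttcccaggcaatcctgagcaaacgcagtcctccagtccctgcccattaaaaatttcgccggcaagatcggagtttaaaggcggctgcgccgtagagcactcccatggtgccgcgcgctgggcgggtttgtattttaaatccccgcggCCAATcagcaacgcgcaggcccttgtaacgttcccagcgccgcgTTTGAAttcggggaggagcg
Kif11: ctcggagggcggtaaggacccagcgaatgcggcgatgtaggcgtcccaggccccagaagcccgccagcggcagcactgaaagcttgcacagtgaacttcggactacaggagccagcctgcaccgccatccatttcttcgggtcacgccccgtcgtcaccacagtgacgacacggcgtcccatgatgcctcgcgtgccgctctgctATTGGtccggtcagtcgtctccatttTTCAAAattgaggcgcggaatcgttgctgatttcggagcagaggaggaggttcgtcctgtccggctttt
Anln: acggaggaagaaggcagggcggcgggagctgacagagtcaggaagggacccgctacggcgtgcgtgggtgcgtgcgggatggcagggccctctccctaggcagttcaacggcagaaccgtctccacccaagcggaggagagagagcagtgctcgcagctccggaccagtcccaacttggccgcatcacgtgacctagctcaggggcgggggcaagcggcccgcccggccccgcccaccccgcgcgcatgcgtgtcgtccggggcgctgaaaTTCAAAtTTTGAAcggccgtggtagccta
Nuf2: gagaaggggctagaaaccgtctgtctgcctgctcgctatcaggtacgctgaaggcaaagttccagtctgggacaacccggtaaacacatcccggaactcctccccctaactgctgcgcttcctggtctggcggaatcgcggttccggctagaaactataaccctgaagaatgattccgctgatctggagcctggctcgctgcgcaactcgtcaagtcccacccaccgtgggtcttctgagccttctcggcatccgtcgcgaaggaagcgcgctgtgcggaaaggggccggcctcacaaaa
Bub3: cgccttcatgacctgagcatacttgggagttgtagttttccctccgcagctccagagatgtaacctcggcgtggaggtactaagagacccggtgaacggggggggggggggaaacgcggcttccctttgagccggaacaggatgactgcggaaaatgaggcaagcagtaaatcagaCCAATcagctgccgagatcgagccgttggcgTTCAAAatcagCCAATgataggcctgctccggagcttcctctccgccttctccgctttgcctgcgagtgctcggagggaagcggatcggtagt

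Windows were found for 40 of the 48 genes, 43 in all. The CHR letters were in 32 of the 43 windows (74.4%), against 16.0% of 21263 windows of all protein-coding genes. A CCAAT box was in 76.7% against 38.2%, and both elements were in 65.1% against 6.4%. The E2F core was in 2.3% of the mitosis windows and in 6.0% of all windows. In a wider list of further mitosis genes, the E2F core was in 19.4% of 72 windows, above the share of all windows. The CHR was in 36 of those 72. A low E2F share was thus not common to both mitosis lists. For a list of DNA replication genes the E2F core was the more frequent, with the CHR in 17.4% and the E2F core in 34.8%. The last CHR of the window began at position -15 from the start in Cdk1, -19 in Kif11, 4 in Ccnb2, 30 in Plk1, 28 in Anln and -43 in Bub3. A match to these letters describes the window and does not show that a factor binds it.

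**Figure D1:**
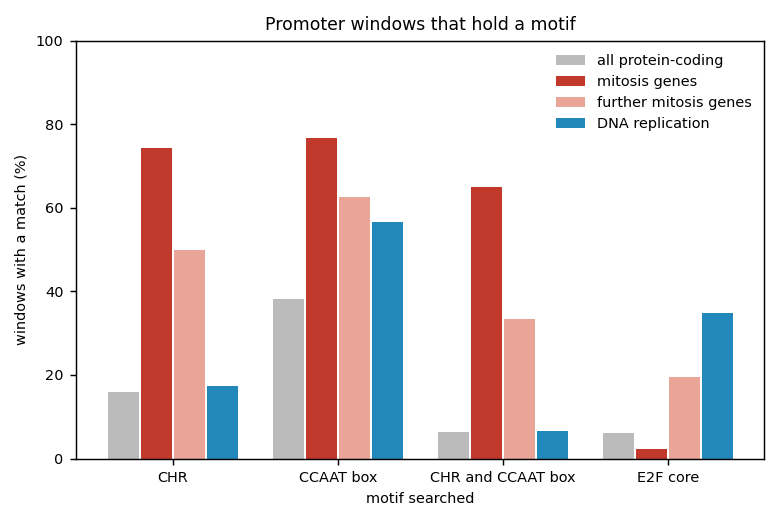
Share of promoter windows (y axis, percent) that hold each motif (x axis), for windows of all protein-coding genes (grey), mitosis genes (red), further mitosis genes (pale red) and DNA replication genes (blue). The mitosis windows stand at 74.4% for the CHR and 2.3% for the E2F core, and those of further mitosis genes at 19.4% for the E2F core.

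Most mitosis genes were lower after MMS at 8 h and at 72 h, and at 24 h most did not pass the test while more of the others were higher than lower. The mean over the 47 genes was 8.55, 8.56, 8.60 and 8.52 on the control 8 h arrays and 7.77, 7.73, 7.68 and 7.78 on the MMS 8 h arrays. At 24 h it was 9.15, 9.18, 9.14 and 9.24 in control and 9.34, 9.33, 9.24 and 9.40 in MMS. At 72 h it was 8.12, 7.84, 7.96 and 7.92 in control and 6.72, 6.65 and 7.28 in MMS. The MMS arrays lay below every control array at 8 and 72 h, whereas at 24 h the lowest MMS array and the highest control array met at 9.24.

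**Figure D2:**
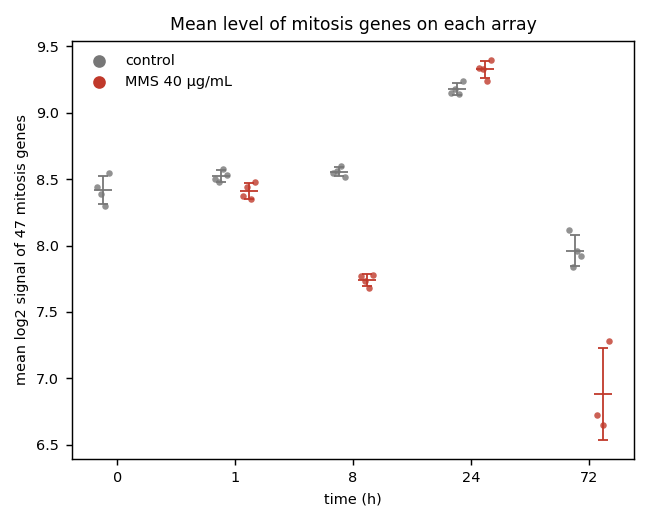
Mean log2 signal of the 47 mitosis genes (y axis) on each array by time (x axis, categories in h). Grey points are control, red points MMS, and bars the group mean and SD. The MMS arrays sit at 7.68 to 7.78 at 8 h, at 9.24 to 9.40 at 24 h and at 6.65 to 7.28 at 72 h.

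At 8 h, 42 of the 47 genes were lower after MMS and 2 were higher (limma, adjusted p under 0.05 over all genes tested), where 25.0% of all genes were lower and 28.7% higher. The median difference was -0.79, against 0.06 over all genes. At least 2-fold lower were 19 of the mitosis genes and 5.27% of all genes. In 39 of the 47 every MMS array lay below every control array, which held for 22.6% of all genes. The fall reached every functional class, with class medians from -0.43 for anaphase and protein destruction to -1.09 for CDK1, its cyclins and phosphatases.

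**Figure D3:**
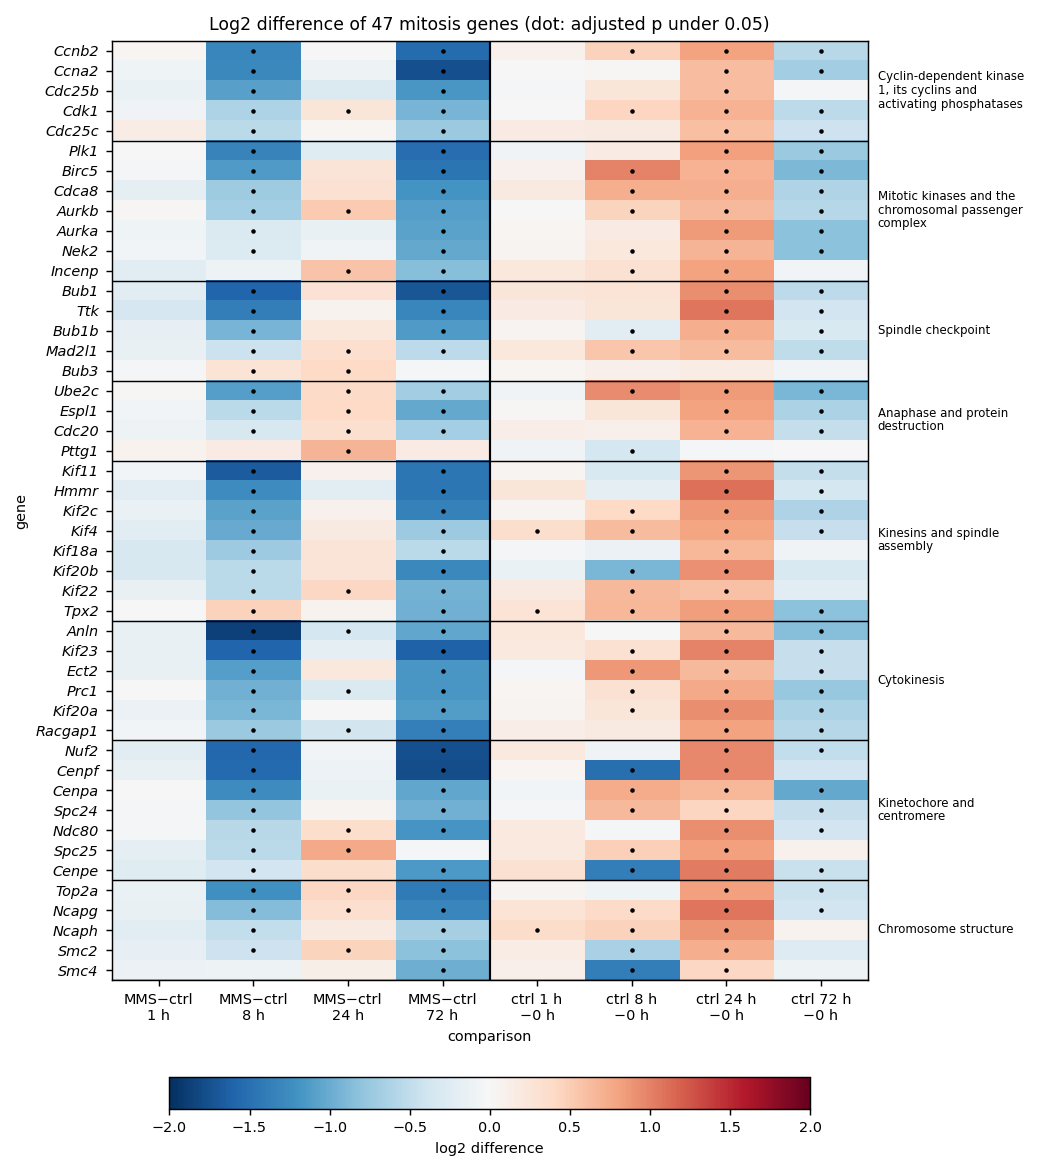
Log2 difference (colour) of each of the 47 mitosis genes (rows, grouped by role) for MMS minus control at 4 times (left 4 columns) and for control cells at 4 times minus control at 0 h (right 4 columns). Dots mark an adjusted p under 0.05. The 8 and 72 h MMS columns are mostly blue, with 42 and 44 genes lower, and the control 24 h column is red, with 45 genes higher.

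All 5 genes of the entry switch fell at 8 h. Cdk1, the kinase itself, was at 10.28, 10.06, 10.26 and 10.23 in control and 9.69, 9.45, 9.62 and 9.63 in MMS, a difference of -0.61 ± 0.09 (SE, adjusted p = 5.21e-07). Ccnb2, which encodes cyclin B2, went from 9.29, 9.23, 9.29 and 9.24 to 7.86, 7.78, 8.03 and 8.18, or 2.46-fold lower. Ccna2, encoding cyclin A2, read 9.34, 9.47, 9.36 and 9.40 in control and 8.08, 8.08, 8.17 and 8.11 in MMS, with a difference of -1.28 ± 0.12. In none of these did the MMS and control arrays overlap. The phosphatase genes Cdc25b and Cdc25c, whose products remove the inhibitory phosphates from CDK1, differed by -1.09 and -0.54.

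Of the 7 mitotic kinases and passenger complex genes, 6 fell. Plk1, Polo-like kinase 1, dropped from 8.71, 8.53, 8.77 and 8.92 to 7.54, 7.09, 7.41 and 7.56, a difference of -1.33 ± 0.11 (SE, adjusted p = 5.87e-12). Aurkb, the Aurora kinase of the passenger complex, was at 7.30, 7.49, 7.23 and 7.63 in control and at 6.60, 6.65, 6.68 and 7.0 in MMS. Its difference was -0.68 ± 0.13 (SE, adjusted p = 7.06e-05), and the MMS arrays lay below the controls. Birc5, encoding survivin, the complex's targeting subunit, read 10.00, 9.93, 10.03 and 10.03 in control and 8.94, 8.71, 8.88 and 8.96 in MMS, with a difference of -1.13 ± 0.15. Incenp, the scaffold of the same complex, did not pass the test, at -0.11, with overlapping arrays of 9.57, 9.66, 9.71 and 9.73 and 9.67, 9.40, 9.55 and 9.63. Aurka and Nek2, kinases of the centrosome, differed by -0.29 and -0.27, and the highest MMS array of Nek2 (7.79, 7.68, 7.94 and 8.04) came close to the lowest control array (8.07, 8.13, 8.08 and 8.27). The other Nek2 probe sets above the limit gave -0.11 and -0.11. With the mean of all Nek2 probe sets, including a set below the limit that gave 0.26, the difference was -0.06 and did not pass.

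Among 5 spindle checkpoint genes, 4 fell and 1 rose. Bub1b, which encodes the checkpoint protein BUBR1, was at 7.69, 7.62, 7.72 and 7.60 in control and 6.92, 6.65, 6.56 and 6.76 in MMS, or 1.91-fold lower. Bub1 and Ttk, the kinases that recruit checkpoint proteins to kinetochores, differed by -1.58 and -1.38, and Mad2l1, encoding MAD2, by -0.43. Bub3, whose product partners both BUB kinases, was higher instead, at 12.03, 11.99, 12.00 and 11.98 in MMS against 11.70, 11.80, 11.72 and 11.66 in control, a difference of 0.28 ± 0.06 (SE, adjusted p = 8.41e-05). Its other probe sets above the limit gave -0.14 and -0.06, and with all its probe sets averaged the difference was 0.04 and did not pass.

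For leaving mitosis, Ube2c, the ubiquitin-conjugating enzyme of the anaphase-promoting complex, fell from 11.11, 10.93, 11.02 and 11.06 to 9.97, 9.84, 9.92 and 9.97, a difference of -1.11 ± 0.12 (SE, adjusted p = 5.86e-09). Cdc20, the activator of that complex, went from 10.82, 10.82, 10.91 and 10.81 to 10.66, 10.32, 10.59 and 10.53. The arrays did not overlap, but the difference of -0.32 ± 0.13 (SE, adjusted p = 0.0369) did not pass when arrays were centred or weighted, or when any 1 of 6 single arrays was left out. Espl1, which encodes separase, the protease that cuts cohesin, differed by -0.55. Pttg1, encoding its inhibitor securin, did not pass, at 0.17, and its MMS arrays of 11.00, 10.90, 10.91 and 10.92 lay above the controls of 10.74, 10.81, 10.72 and 10.78.

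Spindle motors included one of the largest falls. Kif11, the motor that separates the spindle poles, was at 6.88, 6.83, 6.93 and 6.86 in control and 5.26, 5.28, 5.25 and 5.07 in MMS, 3.16-fold lower, with a difference of -1.66 ± 0.15 (SE, adjusted p = 5.05e-11). Its other 2 probe sets gave -0.99 and -0.17. Tpx2, which activates Aurora A at the spindle, went the other way, with 10.48, 10.45, 10.39 and 10.53 in MMS above 10.02, 10.04, 10.01 and 9.93 in control, a difference of 0.46 ± 0.09 (SE, adjusted p = 5.88e-05). Its other 3 probe sets above the limit gave 0.19, -0.12 and 0.31. The 6 other genes of this class were all lower, from -0.54 in Kif22 to -1.25 in Hmmr. Other Hmmr probe sets above the limit ran from -1.355 to -0.03, and those of Kif2c gave -0.84 and 0.23.

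The cytokinesis genes fell without exception, 6 of 6. Anln, encoding the cleavage furrow protein anillin, had the largest fall of all the mitosis genes, from 10.30, 10.21, 10.36 and 10.27 to 8.39, 8.73, 8.11 and 8.43, which is 3.65-fold with a difference of -1.87 ± 0.10 (SE, adjusted p = 1.06e-15). Kif23, a motor of the central spindle, went from 8.30, 8.58, 8.36 and 8.53 to 6.70, 7.08, 6.80 and 6.83, 3-fold lower. Prc1, which bundles the microtubules between the separating chromosomes, was at 9.53, 9.39, 9.49 and 9.63 in control and 8.50, 8.63, 8.51 and 8.57 in MMS, a difference of -0.96 ± 0.08. The control and MMS arrays of these 3 genes did not overlap.

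All 7 kinetochore genes fell at 8 h. Ndc80, the microtubule-binding subunit of the outer kinetochore, read 6.62, 6.57, 6.70 and 6.48 in control and 6.03, 6.37, 5.96 and 5.76 in MMS, a difference of -0.56 ± 0.11 (SE, adjusted p = 4.63e-05). Nuf2, its partner subunit, fell further, from 7.86, 8.07, 7.99 and 8.13 to 6.53, 6.40, 6.15 and 6.67. Cenpf, a large kinetochore protein, was at 5.96, 6.35, 6.22 and 5.60 in control and 4.59, 4.25, 4.36 and 4.73 in MMS, with a difference of -1.55 ± 0.16, while its 2 dimmer probe sets above the limit gave 0.14 and 0.15. Of the genes for chromosome structure, Top2a, the topoisomerase that untangles sister chromatids, went from 9.74, 9.81, 9.76 and 9.80 to 8.60, 8.77, 8.41 and 8.45, or 2.33-fold lower. The condensin subunit Smc4 did not pass, at -0.09.

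**Figure D4:**
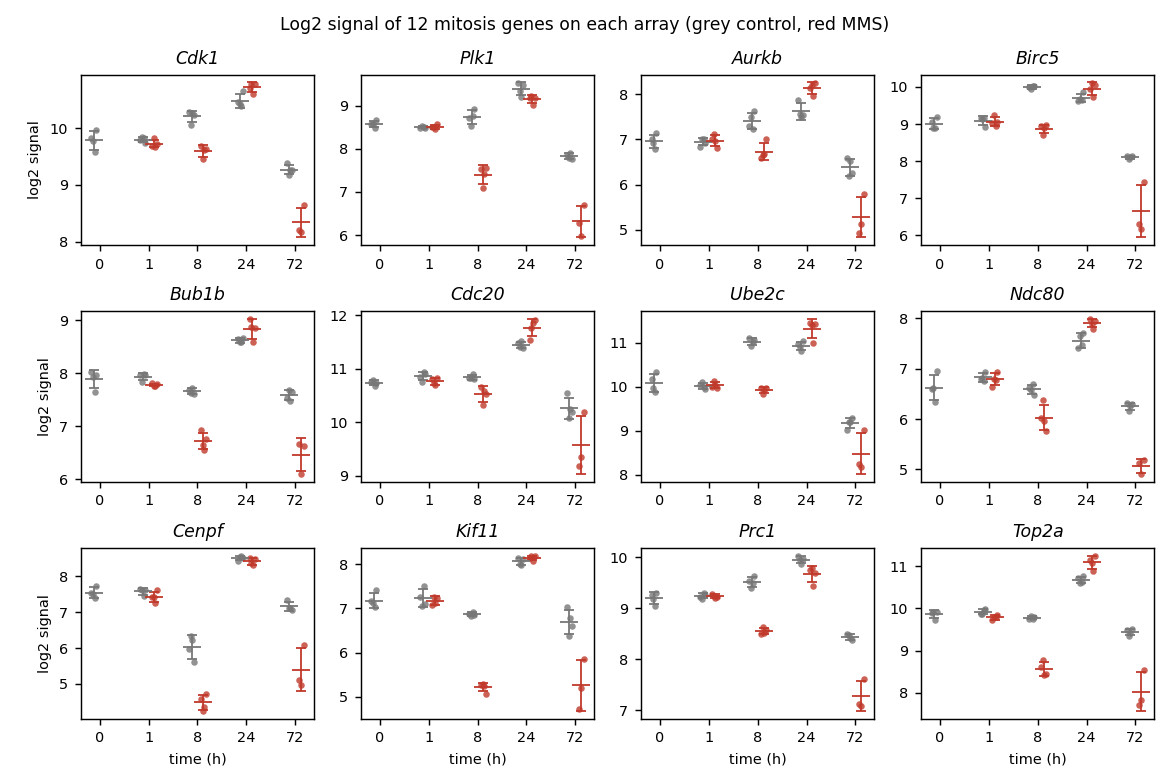
Log2 signal (y axis, scaled for each gene) of 12 mitosis genes on each array by time (x axis, categories in h). Grey points are control, red points MMS, and bars the group mean and SD. The red points lie below the grey ones at 8 h for all 12 genes, for example at 5.07 to 5.28 against 6.83 to 6.93 in Kif11.

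At 24 h, 15 of the 47 genes were higher after MMS and 3 were lower, and 29 did not pass. Among all genes 25.0% were higher and 19.4% lower. The count of higher mitosis genes was thus not far above the background here, and the count of lower ones was below it. The median difference was 0.18, against 0.01 over all genes. In 18 of the genes every MMS array lay above every control array, against 23.8% of all genes. After centring each array, the split was 7 higher and 5 lower, and without the arrays with intestinal transcripts 20 were higher and 3 lower.

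The genes that rose at 24 h were spread over the classes. Spc25, a kinetochore subunit, was highest against control, with 9.63, 9.72, 9.70 and 9.76 in control and 10.45, 10.40, 10.41 and 10.56 in MMS, a difference of 0.75 ± 0.07 (SE, adjusted p = 9.81e-10). Pttg1, which encodes securin, followed, with 11.08, 11.17, 11.03 and 11.09 in control and 11.94, 11.84, 11.56 and 11.77 in MMS, or 1.61-fold higher. Incenp read 10.05, 10.23, 10.10 and 10.30 and 10.68, 10.64, 10.82 and 10.83, with a difference of 0.57 ± 0.10. In these 3 genes every MMS array lay above every control array.

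Aurkb rose by 0.52, from 7.88, 7.57, 7.49 and 7.53 in control to 8.14, 8.21, 7.96 and 8.24 in MMS, and Top2a by 0.42, from 10.72, 10.60, 10.62 and 10.76 to 11.16, 11.07, 10.90 and 11.25. The other Top2a probe set above the limit gave -0.002. With all Top2a probe sets averaged, including a set below the limit (mean 3.67), the difference was 0.13 and did not pass. Ndc80, at 7.40, 7.64, 7.47 and 7.71 in control and 7.98, 7.89, 7.79 and 7.94 in MMS, rose by 0.35, which with arrays centred was 0.27 and did not pass. All 4 genes of anaphase and protein destruction were higher. Ube2c was at 10.97, 10.90, 10.82 and 11.04 in control and 11.46, 11.41, 10.99 and 11.42 in MMS, where the array with intestinal transcripts, replicate 3, was the lowest and within the control range. Its difference with arrays centred was 0.31 and did not pass. Cdc20 rose from 11.47, 11.40, 11.51 and 11.39 to 11.54, 11.75, 11.85 and 11.91, with a difference of 0.32 ± 0.13 (SE, adjusted p = 0.0414) that did not pass when any 1 of 7 single arrays was left out. Cdk1 went from 10.46, 10.42, 10.38 and 10.65 to 10.71, 10.78, 10.59 and 10.78, overlapping in 1 array of each group, and its difference of 0.24 ± 0.09 did not pass with arrays centred, where it was 0.16.

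The 3 genes called lower at 24 h all act in cytokinesis, while 5 genes were lower with arrays centred. Racgap1, a component of the central spindle, was at 8.92, 8.92, 8.78 and 8.98 in control and 8.55, 8.57, 8.36 and 8.64 in MMS, a difference of -0.37 ± 0.11 (SE, adjusted p = 0.00423), but its other bright probe set gave -0.07, and with all its probe sets averaged the difference was -0.14 and did not pass. Anln read 10.84, 10.95, 10.97 and 10.97 in control and 10.51, 10.59, 10.60 and 10.62 in MMS, -0.35 ± 0.10. Prc1 went from 10.03, 9.94, 9.87 and 9.97 to 9.75, 9.79, 9.44 and 9.69, -0.29 ± 0.08. In each of the 3 no MMS array reached the control range. Plk1 was lower on average, at 9.19, 9.22, 9.03 and 9.19 against 9.54, 9.35, 9.21 and 9.49, a difference of -0.24 that did not pass (adjusted p = 0.0657), and the arrays overlapped. It passed under 5 alternatives, among them centred arrays, where it was -0.32. Not passing the test at 24 h were differences of 0.08 in Kif11, -0.10 in Cenpf, 0.21 in Bub1b and 0.25 in Birc5.

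The change from 8 to 24 h was tested as a difference between the MMS effects. The effect was higher at 24 h than at 8 h in 42 of the 47 genes and lower in 1, where 23.3% of all genes were higher and 22.2% lower. The median of the change was 0.98, and the largest was in Bub1, at 1.87 ± 0.22 (SE, adjusted p = 3.33e-08). The other Bub1 probe set above the limit, a dim one (mean 4.56), gave MMS effects of -0.31 at 8 h and -0.33 at 24 h. Tpx2 was the gene with the lower effect, at -0.39 ± 0.13 (SE, adjusted p = 0.0129). Bub3, Aurka, Nek2 and Smc4 did not pass. Centring the arrays shifted the median of all genes by -0.12 in this comparison.

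**Figure D5:**
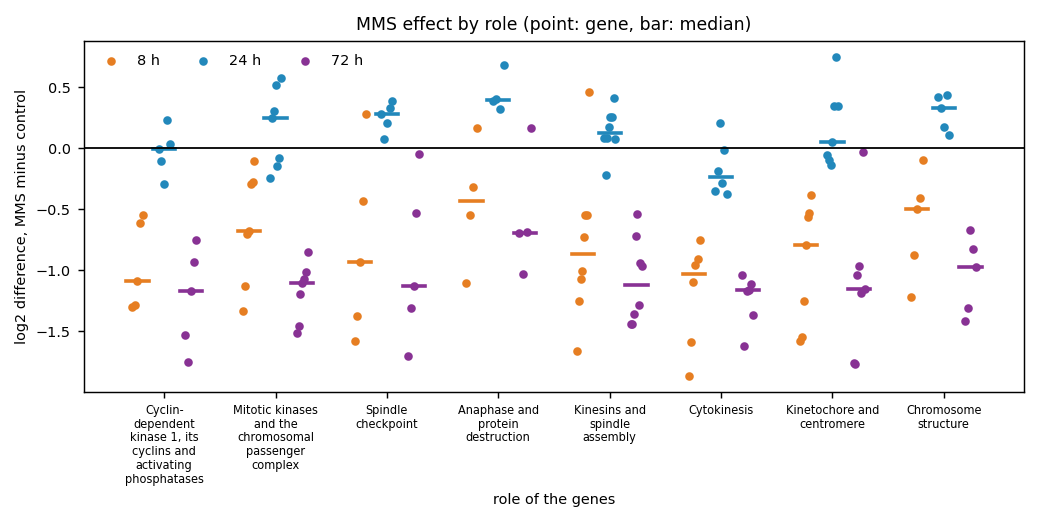
Log2 difference, MMS minus control (y axis), of each mitosis gene by role (x axis) at 8 h (orange), 24 h (blue) and 72 h (purple), with a bar at the median. The 72 h medians lie between -0.69 and -1.17, and at 24 h the median runs from -0.24 for cytokinesis to 0.40 for anaphase and protein destruction.

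At 72 h, 44 of the 47 genes were lower after MMS and none was higher, against 10.4% of all genes lower and 10.1% higher. The median difference was -1.12, and 30 of the genes were at least 2-fold lower, against 1.37% of all genes. In 40 genes the 3 MMS arrays lay below all 4 control arrays, against 15.3% of all genes. Replicate 3, the MMS 72 h array with intestinal transcripts, was the highest of the 3 in 44 genes, by a median of 0.58 over the mean of the other 2. Without it the same 44 genes were lower, with a median of -1.25. At an unadjusted p under 0.05 there were also 44, against 29.6% of all genes.

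The lowest genes at 72 h were Cenpf, Nuf2 and Ccna2. Cenpf was at 7.34, 7.12, 7.12 and 7.07 in control and 5.12, 4.98 and 6.08 in MMS, a difference of -1.77 ± 0.17 (SE, adjusted p = 2.92e-09). Its dimmer probe sets above the limit gave -0.31 and -0.07. Nuf2 went from 7.75, 7.52, 7.57 and 7.51 to 5.56, 5.49 and 6.45, 3.38-fold lower, and Ccna2 from 8.78, 8.53, 8.73 and 8.65 to 6.61, 6.58 and 7.57, 3.37-fold lower. In each, the third MMS array was about 1 above the other two and still below the controls.

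The other described genes were lower as well. Plk1 read 7.86, 7.80, 7.91 and 7.77 in control and 6.28, 5.97 and 6.70 in MMS, a difference of -1.52 ± 0.11 (SE, adjusted p = 2.23e-11). Birc5 was at 8.14, 8.05, 8.10 and 8.14 and 6.32, 6.18 and 7.45, -1.46 ± 0.16, and Top2a at 9.49, 9.35, 9.41 and 9.51 and 7.71, 7.82 and 8.55, -1.41 ± 0.12. These groups did not overlap. Kif11 dropped from 7.03, 6.38, 6.78 and 6.60 to 4.71, 5.20 and 5.86, Ndc80 from 6.31, 6.15, 6.25 and 6.29 to 5.13, 4.91 and 5.18, and Bub1b from 7.54, 7.69, 7.47 and 7.65 to 6.66, 6.10 and 6.62. Prc1 was at 8.50, 8.47, 8.42 and 8.37 in control and 7.13, 7.09 and 7.61 in MMS, Cdk1 at 9.38, 9.17, 9.27 and 9.26 and 8.20, 8.18 and 8.64, and Aurkb at 6.58, 6.20, 6.52 and 6.26 and 4.93, 5.14 and 5.79. None of these 6 had an MMS array within the control range, and their differences ran from -1.44 in Kif11 to -0.93 in Cdk1. Cdc20 did overlap, with 10.54, 10.08, 10.25 and 10.19 in control and 9.19, 9.35 and 10.20 in MMS, and Ube2c, at 9.02, 9.20, 9.19 and 9.28 and 8.24, 8.18 and 9.01, nearly did. Their differences were -0.68 and -0.69.

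The smallest falls that passed were in Mad2l1 (-0.53 ± 0.11 (SE, adjusted p = 0.000383)), Kif18a, a motor that shortens spindle microtubules (-0.54 ± 0.18 (SE, adjusted p = 0.0281)), and Ncaph, a condensin subunit (-0.67 ± 0.11 (SE, adjusted p = 1.88e-05)). Kif18a was at 5.88, 5.70, 5.74 and 5.57 in control and 5.10, 4.86 and 5.59 in MMS, with replicate 3 inside the control range, and its call was lost when any 1 of 4 single arrays was left out. Mad2l1 read 9.09, 8.72, 8.96 and 8.84 in control and 8.19, 8.17 and 8.76 in MMS, also with 1 overlapping array, and Ncaph 8.41, 7.67, 8.22 and 8.15 and 7.35, 7.39 and 7.58 without overlap. Bub3, Spc25 and Pttg1 did not pass at 72 h, at -0.04, -0.03 and 0.17. The MMS effect was lower at 72 h than at 24 h in 47 of 47 genes and higher in 0, against 16.5% of all genes lower and 12.4% higher, with a median change of -1.27.

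At 1 h no mitosis gene passed the test in either direction, and among all genes 0.0283% were lower and 0.361% higher. The differences ran from -0.34 in Ttk to 0.16 in Cdc25c, and 40 of the 47 were below 0. Their median was -0.13, against -0.003 over all genes. At an unadjusted p under 0.05 there were 5 of the 47, against 7.46% of all genes.

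The control cells themselves changed over time, which sets the level each MMS group was compared with. Against 0 h, 3 genes were higher and 0 lower at 1 h, where 7.22% of all genes were higher and 4.38% lower, and the 3 were Kif4, Ncaph and Tpx2. At 24 h 45 genes were higher and 0 lower, where 9.12% of all genes were higher and 2.06% lower, with a median of 0.80. Bub3 and Pttg1 did not pass. At an unadjusted p under 0.05 the count at 24 h was 46, against 25.5% of all genes. At 72 h 35 genes were lower and 0 higher, against 16.3% and 21.8% of all genes, with a median of -0.47. From 24 to 72 h 46 genes fell and 0 rose, against 18.8% and 18.4% of all genes, with a median of -1.32. Cdk1 shows the course, with 9.82, 9.78, 9.57 and 9.97 at 0 h, a rise of 0.69 at 24 h, and a difference of -0.52 at 72 h.

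At 8 h the control cells were mixed, with 22 mitosis genes higher and 7 lower than at 0 h, against 35.8% and 23.6% of all genes. Birc5 rose by 0.99 ± 0.15 and Ube2c by 0.94 ± 0.12. Lower were Cenpf (-1.51 ± 0.16), Cenpe, the kinetochore motor (-1.38 ± 0.15), Smc4 (-1.38 ± 0.11), the motor gene Kif20b (-0.91), the condensin gene Smc2 (-0.64), Pttg1 (-0.35) and Bub1b (-0.23). Cenpf was at 7.54, 7.52, 7.39 and 7.74 at 0 h and 5.96, 6.35, 6.22 and 5.60 at 8 h, and Smc4 at 10.11, 9.94, 9.85 and 10.08 and 8.71, 8.90, 8.71 and 8.14. In both, replicate 4 was the lowest control 8 h array. Probe sets of a gene did not always agree in this comparison. For Ncapg, a condensin subunit, they gave 0.38 and -1.76, for Kif11 -0.31, -0.78 and -1.41, and for Hmmr, a spindle protein, values from -1.98 to 0.08. The other Pttg1 probe sets above the limit gave 0.26 and 0.15, and those of Bub1b 0.21 and 0.47. These were opposite in sign to the probe sets used. Those of Smc2 ran from -1.03 to 0.46.

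Compared with control cells at 0 h, MMS cells had 30 mitosis genes lower and 2 higher at 8 h, 0 lower and 47 higher at 24 h, and 44 lower and 0 higher at 72 h. In this comparison 28.7% of all genes were lower and 44.4% higher at 8 h, 19.8% lower and 29.7% higher at 24 h, and 14.5% lower and 20.6% higher at 72 h. The medians were -0.58, 0.93 and -1.67. At 24 h the MMS cells were thus above the starting level in every gene tested, as the control cells were in most.

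Other probe sets of the same genes were mostly of the same sign. Of 33 genes with more than 1 probe set, 29 had another above the limit, 50 probe sets in all. The sign matched that of the probe set used in 42 of the 50 at 8 h, in 36 at 24 h and in 48 at 72 h, and in 30 for control at 8 h against 0 h. The promoter windows and the 8 h differences can be set side by side for 39 genes. The 29 with a CHR had a median of -0.96 and the 10 without had -0.61, a description that was not tested.

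A wider list of 71 other mitosis genes, none of them among the 47, was read in the same way. At 8 h 39 were lower and 10 higher (median -0.32). At 24 h 3 were lower and 34 higher (0.20), and at 72 h 46 lower and 4 higher (-0.61). The shares over all genes were 25.0% lower and 28.7% higher at 8 h, 19.4% and 25.0% at 24 h, and 10.4% and 10.1% at 72 h. Cep55, needed for the final cut between daughter cells, differed by -1.50 at 8 h, Pimreg by -1.42 and Cdkn3, a phosphatase that acts on cyclin-dependent kinases, by -1.41. Zwint, a kinetochore protein, was higher at 8 h by 1.28, and Ska3 and Kif18b were higher at 24 h, both by 0.96. Mki67, the proliferation marker Ki-67, differed by -0.98 at 8 h, -0.06 at 24 h, which did not pass, and -2.05 at 72 h.

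The factors that act on these promoters were read from a list of regulators. Of all genes, 25.0% were lower and 28.7% higher at 8 h, 19.4% and 25.0% at 24 h, and 10.4% and 10.1% at 72 h, and the counts of this and the next lists stand beside those shares. Of 24 cell cycle transcription regulators, 9 were lower and 4 higher at 8 h, 2 and 10 at 24 h, and 8 and 3 at 72 h. Foxm1, an activator of G2 genes, differed by -0.24 at 8 h and -0.09 at 24 h, neither of which passed, and by -0.49 at 72 h (adjusted p = 0.00325). Mybl2, its partner on MuvB, differed by -0.16, 0.27 and -0.55, and only the last passed (adjusted p = 0.0019). Lin9, a MuvB core subunit, was higher by 0.55 at 8 h and 0.32 at 24 h. E2f4, which joins MuvB to repress, did not pass at any time, at -0.20 at 8 h. Cdkn1a, the p53 target p21 that inhibits cyclin-dependent kinases, was higher by 0.80, 0.36 and 0.50 at 8, 24 and 72 h. Rb1, the retinoblastoma protein, differed by -0.69 at 8 h and 1.11 at 24 h, E2f8, a repressor, differed by -1.07 at 8 h, Nfyb, an NF-Y subunit, by 0.76 at 8 h, and Nfyc, another, by -0.52 at 24 h.

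Of 29 G2 checkpoint genes, 7 were lower and 14 higher at 8 h, 0 and 13 at 24 h, and 5 and 6 at 72 h. Gadd45a, a growth arrest gene, was higher by 2.54 at 8 h, Plk2, a stress-responsive Polo-like kinase, by 0.98 at 8 h and Rprm by 0.88 at 24 h. Atm and Atr, the kinases that sense DNA damage, differed by -0.95 and -0.93 at 8 h, and Clspn, the adaptor claspin, by -0.50. Among 17 genes of the anaphase-promoting complex and its regulators, 8 were lower and 2 higher at 8 h, 4 and 4 at 24 h, which is near the shares over all genes, and 3 and 1 at 72 h. Its inhibitor Fbxo5 differed by -0.92 at 8 h, the subunit Anapc4 by -0.59 and Cdc27 by -0.49. Anapc7 was higher by 1.10 at 8 h, and Anapc2 and Anapc10 were higher at 24 h by 0.47 and 0.31.

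Of 13 cohesin genes, 5 were lower and 4 higher at 8 h (25.0% and 28.7% of all genes), 0 and 6 at 24 h, and 4 and 0 at 72 h. Stag1, Pds5a and Pds5b, cohesin subunits and regulators, differed by -1.33, -0.92 and -0.90 at 8 h, and Esco1 by 0.76 and Mau2 by 0.46. Esco2, the acetyltransferase that sets cohesion in S phase, was higher by 0.99 at 24 h. The 47 DNA replication genes were split at 8 h, with 16 lower and 16 higher (median -0.08), where the mitosis genes had 42 lower. At 24 h 38 replication genes were higher and 2 lower (0.44), and at 72 h 38 were lower and 1 higher (-0.62). Tk1, thymidine kinase, differed by -1.93 at 8 h, Pola1 by -1.45 and Pole2 by -0.93, and Ccne2, encoding cyclin E2, was higher by 1.76 and Rpa2 by 0.92, while Rrm2, a ribonucleotide reductase subunit, was higher by 1.00 at 24 h.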

How the data were processed

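Transcript levels were measured on Affymetrix arrays of 35 samples. The authors deposited log2 values of 45101 probe sets normalized by RMA (per the submitters' processing notes, which give no version). Replicate 4 of MMS 72 h was not analysed here. Probe sets with 1 gene symbol (34958) were used, the brightest per gene, and genes went into the test when 1 or more group means were at or above 4.40, the 40th percentile of the table. Lower signals are close to array background, and precision is set by the number of arrays. The 35 arrays were fitted together (26 residual degrees of freedom) with limma 3.58.1 in R 4.3.3, and two-sided p-values were adjusted by Benjamini-Hochberg over 14135 genes. The code was tested on simulated data.

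The mitosis genes and all lists were chosen with earlier results of these data known. Named array by array were 12 set genes and the 3 lowest and 3 highest called at each MMS time, and elsewhere up to 3 genes per list and direction with the largest called difference at 8 or 24 h, plus Foxm1, Mybl2, Cdkn1a, Mki67, Lin9 and E2f4. Alternatives changed the normalization, filter, probe set, model, weights, reference, replicate block and arrays left out.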

Additional observations from a re-analysis of the deposited data

Results flagged for a closer look

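In 5 of 104 sets of arrays examined for the described genes, 1 array lay far from the other 3 of its group, measured as its gap divided by the range of the group. Chance alone flags about 1 in 20 groups. Ube2c read 10.99 on MMS 24 h replicate 3 against 11.41 to 11.46 on the others (0.896 of the range), and Plk1 read 9.03 on the same array against 9.19 to 9.22 (0.841). Top2a read 9.72 on control 0 h replicate 3 against 9.90 to 9.92 (0.905). Both arrays hold intestinal transcripts. Cdc20 read 10.91 on control 8 h replicate 3 against 10.81 to 10.82 (0.868), and Kif11 read 5.07 on MMS 8 h replicate 4 against 5.25 to 5.28 (0.842).

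The MMS effect differed between times in a direct test. It was higher at 24 h than at 8 h in 42 of the mitosis genes and lower in 1, and lower at 72 h than at 24 h in 47 and higher in 0.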

How the results depend on the processing

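The counts of MMS against control at 8 and 72 h stayed within 1.5 times the main count under every alternative run. Averages over all probe sets of a gene included any below the limit. When a gene's probe sets were averaged, the median differences were -0.05 at 1 h and -0.60 at 8 h after MMS, and 0.14 and 0.65 in control at 8 and 24 h against 0 h. With control at 0 h as the reference for MMS cells, 1 gene was higher at 1 h, and at 24 h the counts were 47 higher and 0 lower. After centring each array, 24 h gave 7 higher and 5 lower, and 5 were also lower when arrays were quantile-normalized again, when only the groups of the contrast were fitted, and without the 8 h arrays. With array weights 6 were higher in control at 1 h and 1 was lower after MMS at 1 h. Leaving out each array in turn gave 1 (without control 1 h replicate 3) to 4 higher in control at 1 h, 0 to 1 (without control 72 h replicate 2) higher in control at 72 h, and 10 to 14 higher after MMS at 24 h. The cause was not tested.

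MMS and control arrays of the same number and time deviated together at r over 0.1 in 8 of 15 pairs (-0.26 to 0.31). The main model did not take the numbers as pairs, and a replicate block was run as an alternative. With a replicate block 42 genes were lower at 8 h, 15 higher at 24 h and 44 lower at 72 h, as without it. Of the results for single genes, 11 lost their call under 1 or more alternatives, 3 gained one and 0 changed sign.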
